A study of Homo sapiens with 10 samples.

Results

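The 9 genes PAX2, PAX8, SIX2, EYA1, LHX1, SALL1, WT1, GATA3 and OSR1 encode the transcription regulators that build the kidney in the embryo. They were taken as the loci of the deposited gene table whose symbol was 1 of these 9, out of 54201 loci with a symbol. Each gene had 1 locus of its own, and no member was listed in a locus that names several genes. RNA came from nuclei of HEK293, an adherent human line that was established from embryonic kidney cells, which had been split into a chromatin pellet extract (CPE, 3 samples) and a soluble nuclear extract (SNE, 3 samples), described as biological replicates. The cells of both fractions were grown without any listed drug. A further 2 chromatin samples with DRB, an inhibitor of transcription elongation, and 2 mock-treated ones were not analysed here. Libraries were stranded total RNA. The table gives 1 FPKM per gene and fraction, that is, fragment numbers scaled for transcript length and for sequencing depth, which the authors' Cuffdiff run computed over the replicates. The spread between replicates and the read depth were therefore unknown, and each difference is judged by the authors' q value, with a call at q of at most 0.05. The comparison asks which RNAs stay with chromatin and which are found in the soluble part of the nucleus.

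The kidney arises from intermediate mesoderm, where OSR1 is among the earliest factors, and PAX2, PAX8 and LHX1 then specify the nephric lineage. GATA3 acts in the nephric duct, and the duct's outgrowth meets a mesenchyme in which EYA1, SALL1, WT1 and SIX2 are active. SIX2 keeps nephron progenitors undifferentiated, and EYA1 is a coactivator of SIX2 and its relatives. These roles are known largely from mouse mutants.

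Of the 9 factors, 8 had enough reads for the authors' test and PAX8 did not. SALL1 and SIX2 passed it, and both were lower in CPE than in SNE. None of the 8 was higher in CPE by Cuffdiff's q, and none at an unadjusted p under 0.05, at which 5 were lower in CPE. The share of all loci at that unadjusted p was not computed, so these 5 are not compared with other genes. By q, 39.3% of all 18271 tested loci with a symbol were lower in CPE and 1.83% were higher in CPE. The 2 of 8 and 0 of 8 called thus do not set the factors apart from other genes. The factors are weakly expressed, and among the 7711 tested loci in their range of mean FPKM, 0.269 to 5.38, 23.5% were lower in CPE and 2.37% higher. The log2 ratio of CPE over SNE was below 0 for 8 of 8 factors, with a median of -1.54, beside 78.1% of tested loci with a symbol and a median of -1.21. Among the 7711 loci in the factors' FPKM range, 71% were below 0 and the median was -0.95.

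**Figure D1:**
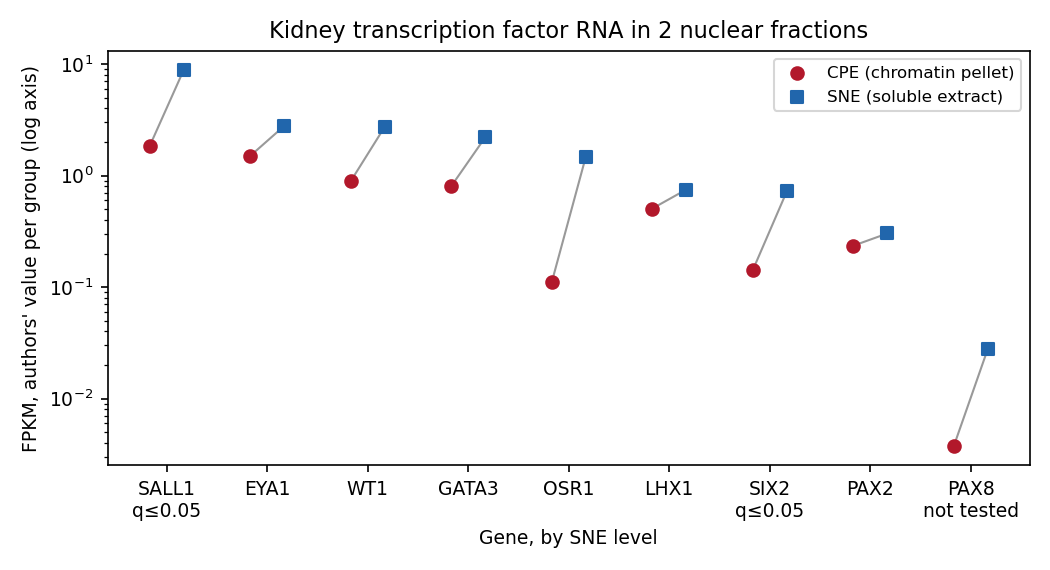
FPKM of each factor on a log axis, in CPE (circles) and in SNE (squares), ordered by the SNE level; each point is the authors' value for a group, with no error available. SALL1 is the highest in both fractions, and PAX8 lies far below the others.

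SALL1, a multi-zinc-finger repressor of the metanephric mesenchyme, was the most abundant of the 9 in both fractions. Its FPKM was 1.84 in CPE and 8.92 in SNE in the authors' deposited table. It was 4.84-fold lower in CPE, a log2 ratio of -2.28 at q = 0.000706. That is the smallest q of any tested locus, and many loci share it, SIX2 among them. Its region on hg19 spans chromosome 16, 51169754 to 51185278.

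SIX2, the homeobox factor of nephron progenitors, had an FPKM of 0.141 in CPE and 0.723 in SNE in the authors' deposited table. It was 5.12-fold lower in CPE (log2 ratio -2.36, q = 0.000706). At these low levels the ratio depends on any constant added to the FPKM, and became -1.77 with 0.1 and -0.59 with 1 added to both. Its region covers hg19 chromosome 2, 45232300 to 45236569, and is the shortest of the 9 at 4.27 kb.

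WT1, the zinc finger protein of the mesenchyme and of podocytes, had an FPKM of 0.890 in CPE and 2.75 in SNE in the authors' deposited table. Its log2 ratio was -1.63 with q = 0.0667, the nearest to the threshold among those not called, and its hg19 region is chromosome 11, 32409321 to 32480315. GATA3, a zinc finger factor of the nephric duct, had an FPKM of 0.802 in CPE and 2.21 in SNE (log2 ratio -1.46, q = 0.140, from the authors' deposited table). Both q values reflect an adjustment over a table in which most loci have no symbol. With the authors' p adjusted by Benjamini-Hochberg over the 18271 tested loci with a symbol, WT1 (adjusted p = 0.0216) and GATA3 (adjusted p = 0.0484) also passed as lower in CPE. That made 4 of 8 lower in CPE, beside 46.4% of all tested loci with a symbol under the same rule and 30.9% of those in the factors' FPKM range. None of the 8 was higher in CPE under that rule, beside 2.61% and 3.38% of these loci.

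OSR1, the odd-skipped zinc finger factor of intermediate mesoderm, had the lowest ratio of the tested factors, without a call. Its FPKM was 0.110 in CPE and 1.48 in SNE in the authors' deposited table. The log2 ratio of -3.75 lay above only 1.66% of tested loci with a symbol. It had q = 0.175, and p adjusted over loci with a symbol was 0.0622. Its region is hg19 chromosome 2, 19551246 to 19558414. The ratio moved to -1.16 when 1 FPKM was added to both fractions.

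EYA1, LHX1 and PAX2 had the ratios nearest to 0. EYA1, a coactivator with phosphatase activity, had an FPKM of 1.50 in CPE and 2.79 in SNE (log2 ratio -0.90, q = 0.449, from the authors' deposited table; hg19 chromosome 8, 72067692 to 72274467). LHX1, a LIM homeobox factor, had an FPKM of 0.505 in CPE and 0.750 in SNE (log2 ratio -0.57, q = 0.305, from the authors' deposited table; hg19 chromosome 17, 35294084 to 35301917). PAX2, a paired-box factor, had an FPKM of 0.235 in CPE and 0.303 in SNE (log2 ratio -0.37, q = 0.561, from the authors' deposited table; hg19 chromosome 10, 102495360 to 102589698). No call separates the fractions for these genes, which is not evidence that their RNA is evenly divided. An interval for each ratio could not be computed.

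PAX8, the paralog of PAX2, was listed at FPKM 0.00372 in CPE and 0.0280 in SNE by the authors' deposited table and was not tested for want of reads (hg19 chromosome 2, 113969099 to 114036527). The ratio of such values is not read here. In SNE the order of level was SALL1, EYA1, WT1, GATA3, OSR1, LHX1, SIX2, PAX2 and PAX8. In CPE it was SALL1, EYA1, WT1, GATA3, LHX1, PAX2, SIX2, OSR1 and PAX8, so the first 4 places and the last were alike and OSR1 took the eighth place in place of the fifth. Without a spread over samples, neighbours in these orders, such as EYA1 and WT1 at 2.79 and 2.75 in SNE, could not be separated. SALL1 stood above 41.7% of tested loci with a symbol in CPE and above 55.4% in SNE, and PAX2 above 10.8% in CPE and 12.1% in SNE.

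**Figure D2:**
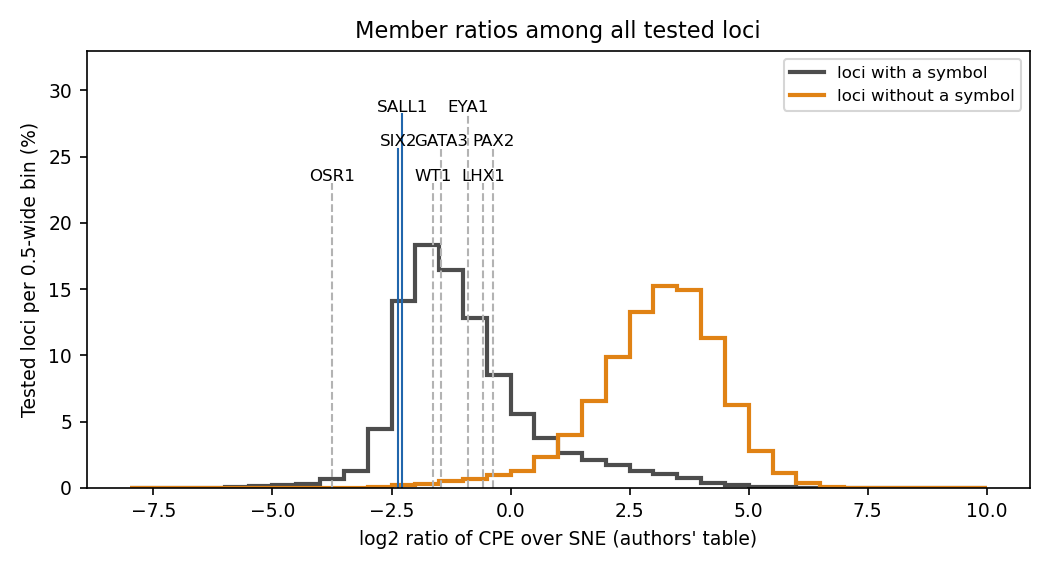
Percent of tested loci in each 0.5-wide bin of the log2 ratio of CPE over SNE, for loci with a symbol and without one, with the 8 tested factors marked (solid for SALL1 and SIX2, q of at most 0.05; dashed otherwise); infinite ratios are not drawn. The 8 ratios, -3.75 to -0.37, lie within the range of loci with a symbol and mostly to the left of those without one.

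The zero of these ratios is set by the authors' scaling of the fractions. The median over single-symbol tested loci that reached an FPKM of 1 in each fraction was -1.35. Relative to it, SIX2 stood at -1.01, SALL1 at -0.93 and OSR1 at -2.40, on the soluble side. WT1 at -0.28 and GATA3 at -0.11 were near that median. PAX2 at 0.98, LHX1 at 0.78 and EYA1 at 0.45 changed sign to the chromatin side. The centred values have no test, so their sign is not a call.

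The promoter sequences of SIX2, called as lower in CPE, and PAX8, too low to test, are shown because they are the members at either end of the evidence for which the RefSeq windows used here give a single start. Each window runs from 250 bases before to 50 after the start, on GRCh38.p14, another build than the table's hg19. Both lie on the minus strand, SIX2 at chr2:45009403-45009702 and PAX8 at chr2:113278872-113279171. Capitals mark the letters GGGCGG (the GC box), CCAAT and TATAAA on either strand.
SIX2: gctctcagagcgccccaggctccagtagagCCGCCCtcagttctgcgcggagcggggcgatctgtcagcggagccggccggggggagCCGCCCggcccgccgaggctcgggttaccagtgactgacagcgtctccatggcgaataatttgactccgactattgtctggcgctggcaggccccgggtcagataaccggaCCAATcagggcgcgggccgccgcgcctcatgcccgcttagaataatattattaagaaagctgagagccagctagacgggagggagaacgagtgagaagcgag
PAX8: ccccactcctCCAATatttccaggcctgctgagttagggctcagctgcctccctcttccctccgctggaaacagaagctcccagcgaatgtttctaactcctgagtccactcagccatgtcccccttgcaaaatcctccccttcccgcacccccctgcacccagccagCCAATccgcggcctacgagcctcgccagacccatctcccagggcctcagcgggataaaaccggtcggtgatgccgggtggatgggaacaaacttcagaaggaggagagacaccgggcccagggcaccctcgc

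The SIX2 window held 2 GC boxes and 1 CCAAT, and the PAX8 window held 2 CCAAT and no GC box. None of these motifs overlapped another. Among 35116 RefSeq windows of the same length, 45.0% held GGGCGG, 34.6% CCAAT and 11.5% TATAAA. The G and C content was 64.0% for SIX2 and 62.0% for PAX8. CpG dinucleotides occurred at 0.949 of the number expected from base composition in the SIX2 window and at 0.483 in the PAX8 window, beside a median of 0.579 over all windows (quartiles 0.229 and 0.856). RefSeq windows were found for 5 of the 9 factors, 14 windows in all, with 6 for GATA3, 4 for WT1 and 2 for PAX2. Windows of EYA1, LHX1, SALL1 and OSR1 were not analysed here. Of the 14 windows, 6 held GGGCGG, 4 held CCAAT and 1, of GATA3, held TATAAA.

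The length of the region given in the table differed widely between the factors. SIX2, OSR1 and LHX1 lay in regions of 4.27, 7.17 and 7.83 kb, and EYA1 in one of 206.8 kb. By GENCODE 29 the longest SIX2 and OSR1 transcripts have 2 exons each, that of SALL1 has 3, and that of EYA1 has 18. The region is not always the span of the gene, which by GENCODE 29 is 394.6 kb for EYA1. For WT1 the gene spans 47.9 kb and the region 71.0 kb, and for GATA3 29.8 and 21.6 kb. The classes below use the region. Among 2600 tested loci with 1 symbol in regions under 10 kb that hold at most 2 symbol loci, the median log2 ratio was -1.80. It was -1.51 at 10 to 50 kb, -1.22 at 50 to 100 kb and -0.96 in longer ones (n = 3244, 1371 and 1068). Against these medians SIX2, SALL1, WT1 and OSR1 had lower ratios, GATA3 and EYA1 lay within 0.1 of theirs, and LHX1 and PAX2 had higher ones. LHX1, in a region under 10 kb, lay above the upper quartile of its class (-0.67), and PAX2 above that of its own (-0.54). SALL1 and OSR1 lay below the lower quartiles of theirs, -2.01 and -2.41.

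**Figure D3:**
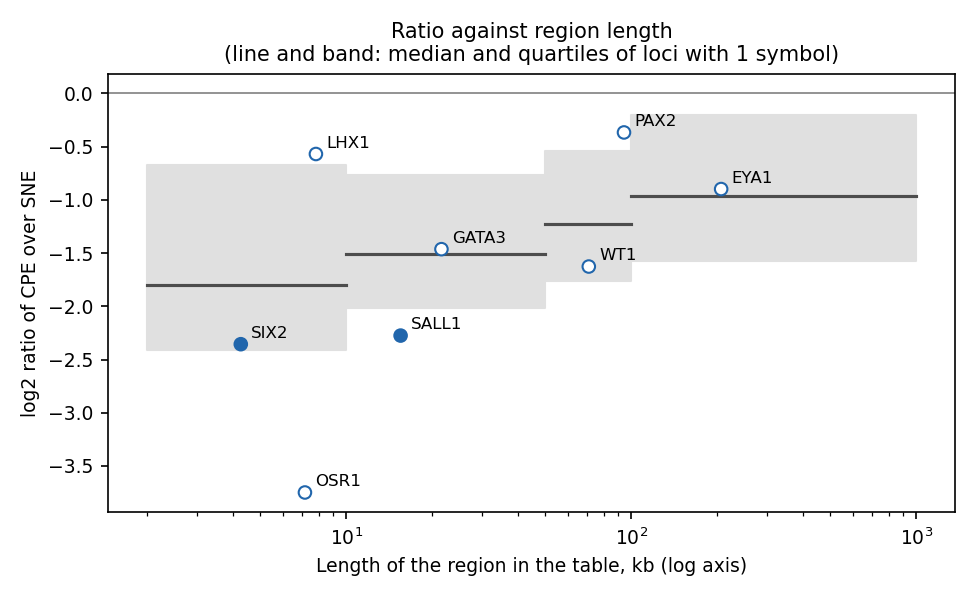
Log2 ratio of CPE over SNE against the length of the region on a log axis, for the 8 tested factors (filled where q was at most 0.05); lines and bands are the median and quartiles of tested loci with 1 symbol in 4 length classes. The class medians go from -1.80 in the shortest regions to -0.96 in the longest, and LHX1, PAX2, SALL1 and OSR1 lie outside the bands.

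The regions of the factors also held loci with no symbol, and most of these had higher values in CPE. There were 110 such loci in the regions of 8 factors, none in that of PAX8, and 100 were tested. The FPKM was higher in CPE at 99 of the 100, and 7 of them passed the test as higher in CPE. None was higher in SNE by Cuffdiff's q, and none at an unadjusted p under 0.05, at which 9 were higher in CPE. The share of all unnamed loci at that unadjusted p was not computed, so these 9 are not compared with it. Of the 10 with too little data for a test, 8 had the higher value in SNE, so over all 110 the CPE value was the higher at 101 and the lower at 9. By q, 9.45% of all 174660 tested unnamed loci were higher in CPE and 0.63% were lower. In regions with at most 2 symbol loci, 9.48% of 57709 unnamed loci were higher in CPE and 1% lower, and the CPE value exceeded the SNE value at 96.3%. The 7% called in the factors' regions is thus near the background. The sources used here do not say how the unnamed loci were defined, and if these libraries defined them, their direction is not independent of that choice. The table gives the region and not the position of each locus, so whether one lies in an intron, upstream or on the other strand could not be read.

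The OSR1 region held 1 such locus, with an FPKM of 0.831 in CPE and 0.0995 in SNE (log2 ratio 3.06, q = 0.00134, from the authors' deposited table). OSR1 itself had the ratio of -3.75 in the same 7.17 kb. The SALL1 region held 2, of which 1 was higher in CPE, at 1.21 FPKM in CPE and 0.197 in SNE (log2 ratio 2.62, q = 0.000706, from the authors' deposited table). The other, at 0.590 in CPE and 1.03 in SNE, was the only one of the 100 with a ratio below 0, and it was not called (q = 0.580). In the SALL1 region the gene and an unnamed locus were thus both called, in opposite directions. How often this occurs in other regions was not counted, so it is not read as particular to SALL1.

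The GATA3 region, on hg19 chromosome 10 from 8095567 to 8117162, held 7 tested unnamed loci, all with the higher value in CPE, and 3 of them were called. The FPKM values of these 3 were 1.20, 0.856 and 0.628 in CPE against 0.159, 0.232 and 0.161 in SNE, in the same order (q = 0.000706, 0.0248 and 0.000706, from the authors' deposited table). The most abundant, at 2.57 in CPE and 0.0911 in SNE, was not called (q = 0.289). In CPE, 2.57, 1.51, 1.20, 1.03 and 0.856 FPKM at 5 of these loci exceeded the 0.802 of GATA3 itself, whereas in SNE none reached its 2.21.

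EYA1 had the most, 69 loci in its region on chromosome 8, of which 68 were tested. All 68 had a higher FPKM in CPE, 2 passed the test, and 7 were listed at 0 in SNE. The 2 called loci had an FPKM of 1.27 and 1.01 in CPE against 0.0538 and 0.0742 in SNE (log2 ratios 4.56 and 3.77, q = 0.000706 and 0.0155, from the authors' deposited table). Over the 61 with a finite ratio the median was 3.97, beside the -0.90 of the gene. The most abundant in CPE, at 6.08 FPKM and listed at 0 in SNE, was not called (q = 0.477). In the WT1 region 15 of 20 unnamed loci were tested. None was called, and all 15 had higher values in CPE (median log2 ratio 3.45 over the 13 with a finite ratio). Of the 5 untested, 4 had higher values in SNE, among them the most abundant unnamed locus of the region, at 2.26 FPKM in CPE and 4.64 in SNE in the authors' deposited table. The 4 tested in the SIX2 region (median 2.95), the 2 of PAX2 and the 1 of LHX1 were not called either.

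**Figure D4:**
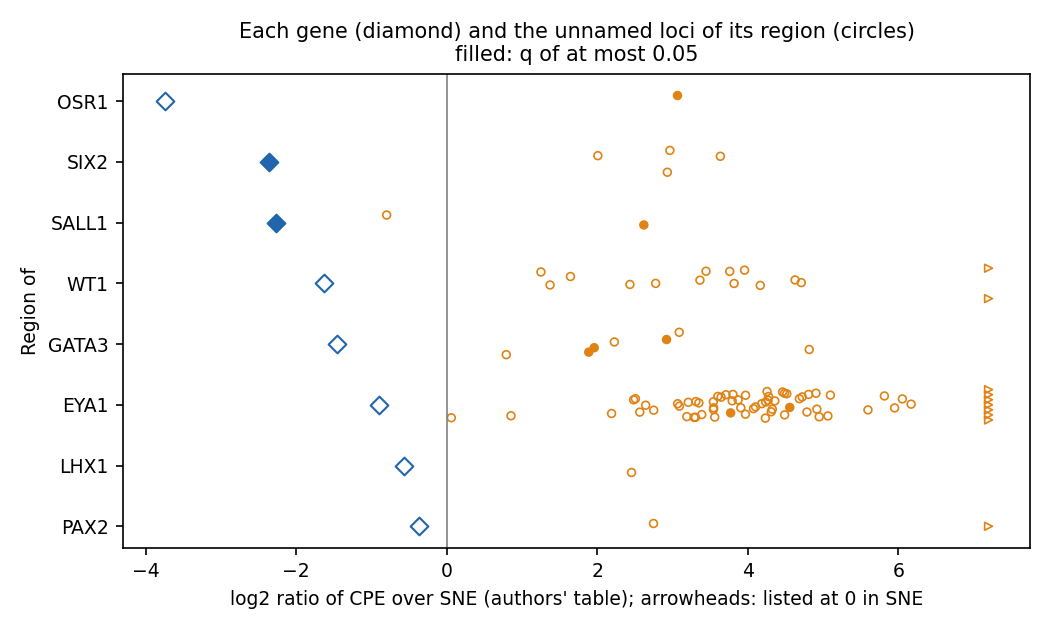
Log2 ratio of CPE over SNE for each tested factor (diamond) and the tested unnamed loci of its region (circles, filled where q was at most 0.05; arrowheads at the right edge are listed at 0 in SNE and have no finite ratio). The 8 diamonds lie below 0 and 99 of the 100 unnamed loci above it.

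Named neighbours in these regions were few and low. WT1-AS, the antisense transcript at the WT1 promoter, had an FPKM of 0.814 in CPE and 0.492 in SNE without a call (log2 ratio 0.73, q = 0.517, from the authors' deposited table). Its ratio and that of WT1 had opposite signs. A locus naming GATA3-AS1, antisense to GATA3, together with RP11-379F12.3 was listed under another region than that of GATA3. Its FPKM was 0.242 in CPE and 0.333 in SNE (q = 0.523, from the authors' deposited table). The sources used here do not say whether the authors' counting used strand. Reads of a gene and of an antisense partner that overlaps it could therefore not be separated for certain. The loci AC009166.5 beside SALL1, RP11-445F12.2 beside LHX1, a clone-named one beside EYA1 and the locus naming AC016683.6 and RP11-65I12.1 beside PAX8 were not tested. The first had an FPKM of 0.157 in CPE and 0.247 in SNE, the next 2 were listed at 0 in both, and the last had 0.0258 in CPE and 0.0370 in SNE, all in the authors' deposited table.

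Except for WT1, whose family was not listed, each factor had a relative with a higher FPKM in both fractions, a description with no test between genes. Of 31 relatives, 14 were measured, that is, had a test, a locus of their own and an FPKM of at least 1 in either fraction. Of these, 9 were lower in CPE, 5 were not called and none was higher in CPE by Cuffdiff's q, with a median log2 ratio of -2.06. Among 12630 loci measured in the same way, 48.1% were lower and 1.49% higher in CPE, with a median of -1.36. None of the 14 was higher in CPE at an unadjusted p under 0.05, for which the share of all measured loci was not computed. EYA4 had 14.7 FPKM in CPE and 15.3 in SNE without a call (log2 ratio -0.06, q = 0.882, from the authors' deposited table), a ratio nearer to 0 than that of EYA1. SALL3 was 24.4-fold lower in CPE (0.195 in CPE and 4.76 in SNE, q = 0.00307, from the authors' deposited table). LHX2 was 7.14-fold lower in CPE (q = 0.000706 in the authors' deposited table).

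Other relatives were named after their values were seen. SIX4, a relative of SIX2, had an FPKM of 5.32 in CPE and 12.4 in SNE and was 2.33-fold lower in CPE (q = 0.000706, from the authors' deposited table). SALL2 had an FPKM of 4.61 in CPE and 16.5 in SNE (q = 0.000706), and GATA4 1.88 in CPE and 9.11 in SNE (q = 0.000706), both from the authors' deposited table and both lower in CPE. GATA6 had 1.07 in CPE and 11.0 in SNE without a call (q = 0.140, from the authors' deposited table). PAX3 had 6.16 in CPE and 7.84 in SNE (q = 0.548), above PAX2 and PAX8 in both fractions of the authors' deposited table. OSR2 was higher than OSR1 in both fractions, at 2.18 in CPE and 4.76 in SNE, and was 2.19-fold lower in CPE (q = 0.0416, from the authors' deposited table). PAX1, below the minimum of 1 FPKM, was the relative called in the other direction, at 0.305 in CPE and 0.0871 in SNE (q = 0.0212, a call in CPE, from the authors' deposited table). A locus naming EYA2 together with RP5-1050K3.3 also had the higher value in CPE, 7.62 FPKM against 4.56 in SNE, without a call (log2 ratio 0.74, q = 0.515, from the authors' deposited table). The locus naming PAX6 together with Z83307.3 went the other way, at 8.07 FPKM in CPE and 19.9 in SNE, also without a call (log2 ratio -1.30, q = 0.225, from the authors' deposited table).

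Of the regulators that work beside the 9 factors, 21 of 37 were measured. Of these, 10 were lower in CPE, 11 were not called and none was higher by Cuffdiff's q (median log2 ratio -1.68). Over all measured loci 48.1% were lower and 1.49% higher in CPE, so these counts are near the background. None of the 21 was higher in CPE at an unadjusted p under 0.05, for which the share of all measured loci was not computed. FOXC1, a forkhead factor of the mesoderm, had an FPKM of 15.5 in CPE and 44.4 in SNE, and FOXD1, the forkhead factor of renal stroma, 1.00 in CPE and 10.9 in SNE (q = 0.000706 for both in the authors' deposited table). POU3F3, a POU homeobox factor of the nephron, was 6.71-fold lower in CPE (q = 0.00567 in the authors' deposited table). CHD4, the remodeler of the NuRD complex that SALL1 recruits, was the most abundant, at 513.7 in CPE and 477.4 in SNE, and was not called (q = 0.935, from the authors' deposited table). Among proteins that bind the factors, named after their values were seen, LDB1, a partner of LIM homeobox proteins, and BASP1, a corepressor of WT1, were 3.21-fold and 6.09-fold lower in CPE (q = 0.000706 for both). PAXIP1, which binds PAX proteins, was not called (log2 ratio -0.54, q = 0.485, all from the authors' deposited table).

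**Figure D5:**
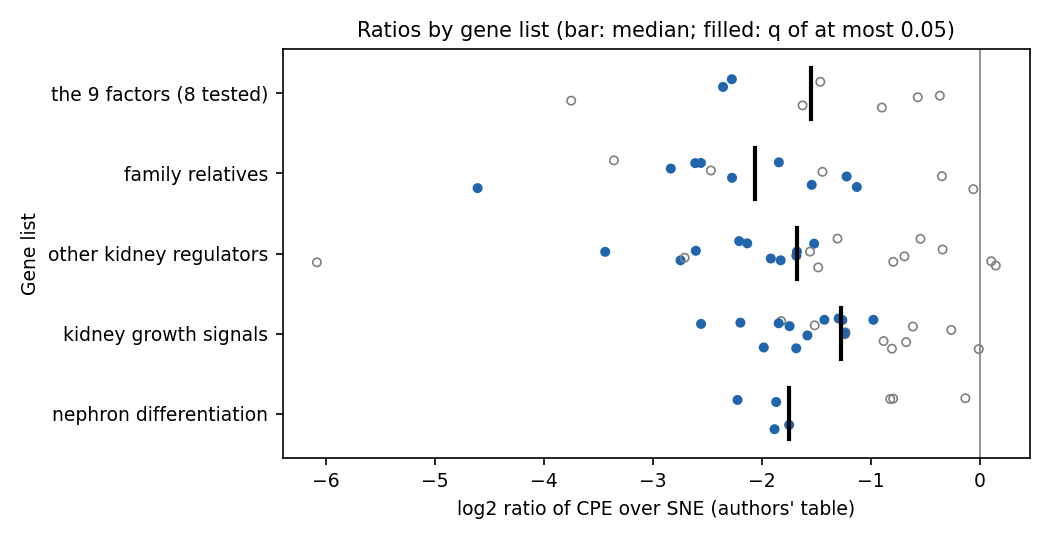
Log2 ratio of CPE over SNE for the tested factors and the measured members of 4 gene lists (filled where q was at most 0.05; bars are medians). The medians lie between -2.06 and -1.28, and no filled point lies above 0.

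Signals of kidney growth, among them targets of these factors, had 22 measured among 32. Of these, 12 were lower in CPE, 10 were not called and none was higher by Cuffdiff's q (median log2 ratio -1.28). These counts are near the 48.1% lower and 1.49% higher in CPE over all measured loci. None of the 22 was higher in CPE at an unadjusted p under 0.05, for which the share of all measured loci was not computed. CTNNB1, the Wnt effector beta-catenin, had an FPKM of 183.9 in CPE and 220.4 in SNE without a call (q = 0.292), and ITGB1, an integrin subunit, had 40.1 in CPE and 144.2 in SNE (q = 0.000706), in the authors' deposited table. WNT11, a Wnt ligand of the ureteric bud tip, and GPC3, a heparan sulfate proteoglycan, were 5.89-fold and 4.58-fold lower in CPE (q = 0.0184 and 0.00194 in the authors' deposited table). GDNF, the growth factor whose expression EYA1 and PAX2 promote in mouse, was below 1 FPKM, at 0.397 in CPE and 0.660 in SNE, and its receptor RET was at 0.102 in CPE and 0.247 in SNE. Neither was called (q = 0.469 and 0.219 in the authors' deposited table), and both were named after their values were seen. FREM1, a basement membrane protein also below the minimum and named afterwards, had the higher value in CPE, 0.928 against 0.467 in SNE, and missed the threshold (q = 0.0532, from the authors' deposited table), while its p adjusted over loci with a symbol was 0.0169.

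Of 24 markers of differentiated nephron and epithelium, 7 were measured. By Cuffdiff's q, 4 of them were lower in CPE, 3 were not called and none was higher (median log2 ratio -1.75). Over all measured loci 48.1% were lower and 1.49% higher in CPE. None of the 7 was higher in CPE at an unadjusted p under 0.05, for which the share of all measured loci was not computed. The called ones were EPCAM, KRT8, KRT19 and PODXL. EPCAM stood at 55.3 in CPE and 201.9 in SNE, KRT8 at 18.6 in CPE and 86.9 in SNE, and KRT19 at 18.6 in CPE and 68.7 in SNE (each with q = 0.000706, from the authors' deposited table), all widespread epithelial genes. The fourth was PODXL, the podocalyxin of podocytes, at 3.93 in CPE and 13.2 in SNE (q = 0.0134, from the authors' deposited table). LRP2, the megalin of proximal tubule, had 8.50 FPKM in CPE and 15.0 in SNE without a call (q = 0.232, from the authors' deposited table). CUBN, its partner in protein uptake, was below the minimum, at 0.268 in CPE and 0.0812 in SNE, and missed the threshold (q = 0.0578, from the authors' deposited table), although its p adjusted over loci with a symbol was 0.0185, on the CPE side. PODXL, LRP2 and CUBN were named after their values were seen, as were ALB, INA, the untested markers and the loci naming several genes that follow. Of the 20 markers with a locus of their own, 11 were under 0.2 FPKM in both fractions, with AQP2, CDH16, SLC34A1 and SLC22A6 among those listed at 0. Of 10 genes described for this line, 3 were measured and all 3 were lower in CPE, beside 48.1% of all measured loci. The neurofilament genes NEFL and NEFM, and STMN2, were too low to test. INA, another neuronal filament gene, was tested but below the minimum, at 1.88e-05 in CPE and 0.890 in SNE without a call (q = 0.493). A locus naming TUBB3 together with other genes had 44.3 FPKM in CPE and 66.4 in SNE without a call (q = 0.168, both from the authors' deposited table). VIM, an intermediate filament protein, had 50.7 FPKM in CPE and 173.0 in SNE (q = 0.000706 in the authors' deposited table). Of 12 markers of blood, endothelium, fibroblasts, liver and muscle with a locus of their own, 9 were under 0.2 FPKM in both fractions and COL1A2, CD3E, HBB and MYH7 were among those listed at 0. ALB, listed at 0.373 in CPE and at 0 in SNE, was under the minimum but called as higher in CPE (q = 0.000706, from the authors' deposited table). The most abundant of that list were HBA1, whose near-identical copy makes its value uncertain, at 0.196 in CPE and 1.79 in SNE (q = 0.00134), and COL1A1, at 0.958 in CPE and 1.45 in SNE (q = 0.407, from the authors' deposited table). As a check of the fractionation, NEAT1 and MALAT1, nuclear long non-coding RNAs, were higher in CPE (log2 ratios 3.44 and 1.45) and the GAPDH messenger was lower (-2.34), each at q = 0.000706 in the authors' deposited table. The remaining locus of that check, naming ACTB together with AC006483.1, had 802.8 FPKM in CPE and 1342.9 in SNE without a call (log2 ratio -0.74, q = 0.503, from the authors' deposited table).

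The loci most like the 3 most abundant factors in both fractions were found by distance in log2(FPKM + 0.1). For SALL1 they were SAMD1, at 1.82 in CPE and 9.08 in SNE, and RELL1, at 1.82 in CPE and 9.09 in SNE. For EYA1 they were KCNMA1 and RPF2P1, and for WT1 they were FEZ1 and AC007014.1, all within 0.034 on the log2 scale. With 2 values per gene such likeness is common, and 13 to 20 loci lay within 0.1 of each factor.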

How the data were processed

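RNA of HEK293 nuclei was measured in 3 CPE and 3 SNE samples. Reads were processed with TopHat2 and Cuffdiff on hg19, per the submitters' processing notes; the sources used here give no versions, annotation or library scaling. The deposited gene table holds 1 FPKM per group, computed by the authors over replicates, with 0 columns of single samples. Beside these stand a log2 ratio (CPE over SNE), a p-value and a q-value, all from the authors. A second deposited table, of isoforms, was not used, since 86.6% of 14208 FPKM pairs found once in each table stood under different identifiers. Depth was unknown, so no interval was derived.

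Loci with the status OK count as tested, and as called at q of at most 0.05. Start positions are counted from 1. Members and gene lists were chosen with earlier results of these data known. Named genes were all 9 members, called unnamed loci of their regions and up to the 3 most abundant others, and from each list the 2 of highest mean FPKM and the 2 called with the largest ratio. Others fall outside this rule and are marked, except the antisense and other named neighbours of the factors. A gene that this rule names is not reported here. Exon numbers came from GENCODE 29, promoters from RefSeq. Calls and adjustment, computed with Python 3.11.15, pandas 2.3.3 and numpy 2.4.6, were tested on simulated data. No list was tested as a set.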

Additional observations from a re-analysis of the deposited data

How the results depend on the processing

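The 2 called factors kept their call at q of at most 0.01, with a minimum absolute log2 ratio of 1, and with loci naming several genes left out. A minimum of 1 FPKM in both fractions left 1 call, SALL1, since SIX2 falls below it, and the calls in CPE over all loci with a symbol dropped to 146, against 335, and those of the family relatives in SNE to 5, against 9. Adjustment of p over loci with a symbol gave 4 called factors, against 2. The same rule gave 8483 loci with a symbol lower in CPE, against 7188. A q of at most 0.01 left 5 growth signals lower in CPE, against 12. Centring on the symbol loci, a shift of -1.35, moved the median log2 ratios to -0.20 for the factors, -0.71 for relatives, -0.33 for other regulators and -0.40 for nephron differentiation, and turned that of growth signals to 0.072. By sign alone it put 1686 called loci with a symbol on the chromatin side, and 2 relatives and 4 growth signals. The median of the unnamed loci in place of the gene's own locus turned the sign of all 8 tested factors, as these are other loci of the region. It was 2.95 for SIX2, 0.91 for SALL1 and 2.23 to 3.97 for the other 6. For PAX2, LHX1 and OSR1 this median rests on 1 locus each. For SALL1 it rests on 2 loci of opposite sign, at -0.80 and 2.62. No paired analysis was possible because the table gives 1 value per group, and leaving out replicates was not run for the same reason. Unknown depth limits all values under 1 FPKM, that is, 7 of the 9 factors in CPE and 3 tested ones in both fractions.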
